A study of Mus musculus with 154 samples.

Results

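Interferon-stimulated genes are the genes that cells switch on when interferon binds its receptors, and many of them block viruses or destroy intracellular parasites. The set described here holds 37 genes that were listed by symbol for this known property and matched to Ensembl identifiers through GENCODE, and all 37 were among the 13289 genes of the liver count table. The list was chosen with earlier results of these data known. RNA-Seq counts were analysed for livers of male mice aged 5 weeks, killed after an overnight fast, of which 20 were controls, 63 carried 1 substituted chromosome and 71 carried 2. The mice belonged to 24 strains built from chromosome substitution strains (CSSs), in which an A/J chromosome replaces its C57BL/6J (B6) counterpart. The control was B6 (n = 20). In the 8 single CSSs, mice were heterozygous for 1 A/J chromosome, which was 3, 4, 5, 6, 8, 10, 14 or 17 (n = 8 each, and n = 7 for chromosome 5), and in the 15 double CSSs they were heterozygous for 2 of them (n = 3 to 6). A name such as A3:A10 stands for the cross of a dam with A/J chromosome 3 and a sire with A/J chromosome 10, and also for the interaction between these chromosomes. A substituted chromosome carries every A/J variant on it, so an effect belongs to the whole chromosome, and heterozygous mice show effects of dominant or semi-dominant alleles. No infection or interferon treatment is part of the design, so all levels are those of unchallenged liver.

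Total counts per mouse lay between 4638701 and 30465477. The flow cell of each library was not given in the sources used here, so it was not modelled. All mice were labelled male, but mouse E733 of A14:A4 had 2.94 CPM (counts scaled to the effective library size) over 4 Y-linked genes, whereas the next lowest mouse had 228 CPM. Hepatocyte marker genes summed to between 86500 and 134000 CPM in B6. B6 mouse E373 stood apart for the interferon-stimulated genes, with 8 of 37 at least 1 log2 unit below the B6 median. Calls of members that were lost without E733 or E373 are named beside the results.

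Interferons act through paired receptors and JAK kinases on transcription factors. Type I interferons assemble a complex that includes STAT2 and IRF9 and binds the interferon-stimulated response element (ISRE), whereas interferon gamma acts through the gamma-activated sequence (GAS). In liver, hepatocytes, Kupffer cells and endothelial cells all respond, and a low tonic expression is present without infection. RefSeq promoters (build GRCm38.p6) were found for 29 of the 37 genes and searched over the 250 bases before each annotated start, on both strands for GAAA followed after any 2 bases by GAAA, the ISRE core, and for the palindrome TTCNNNGAA as the GAS core. The ISRE letters were present in 15 of 29 genes (51.7%), compared with 3.46% of 27025 genes with a RefSeq promoter, and the GAS letters in 8 of 29 (27.6%), compared with 8.13%. Both were present in 6 of 29 genes (20.7%), compared with 0.459%. A match describes the letters only and is not evidence of binding. The following stretches run 5′ to 3′ on the strand of the gene, from 130 to 21 bases before the start, with the ISRE and GAS letters in capitals. They are shown because these genes recur below, and because the GTPase genes Igtp, Irgm2 and Tgtp1 carry the elements in the same arrangement, a GAS followed after 2 bases by GAAACTGAAA.
Ifit1 (chr19:34640759-34640868, plus strand): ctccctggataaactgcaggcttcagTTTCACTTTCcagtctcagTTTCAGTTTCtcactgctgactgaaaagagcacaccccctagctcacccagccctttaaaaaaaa
Isg15 (chr4:156200839-156200948, minus strand): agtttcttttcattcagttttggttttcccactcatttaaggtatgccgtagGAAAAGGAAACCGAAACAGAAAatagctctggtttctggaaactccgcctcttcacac
Igtp (chr11:58199426-58199535, plus strand): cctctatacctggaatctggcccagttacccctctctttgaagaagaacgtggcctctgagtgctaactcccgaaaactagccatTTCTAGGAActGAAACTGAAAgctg
Irgm2 (chr11:58214847-58214956, plus strand): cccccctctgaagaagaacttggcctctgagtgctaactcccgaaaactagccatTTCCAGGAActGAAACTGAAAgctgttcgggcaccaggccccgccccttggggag
Tgtp1 (chr11:48992267-48992376, minus strand): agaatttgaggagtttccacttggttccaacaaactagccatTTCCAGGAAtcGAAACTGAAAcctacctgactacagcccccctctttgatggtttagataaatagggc
Gbp7 (chr3:142530206-142530315, plus strand): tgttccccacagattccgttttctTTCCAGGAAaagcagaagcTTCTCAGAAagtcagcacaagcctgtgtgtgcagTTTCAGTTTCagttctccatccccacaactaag
Gbp3 (chr3:142559914-142560023, plus strand): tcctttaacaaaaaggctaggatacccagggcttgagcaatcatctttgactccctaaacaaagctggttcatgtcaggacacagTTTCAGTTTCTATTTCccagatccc
Ifit1, Gbp7 and Gbp3 carry TTTCAGTTTC, the reverse complement of GAAACTGAAA. In Isg15, 3 ISRE matches overlap each other, and in Gbp3 a pair overlaps. Among the genes not shown, the GAS and an ISRE match overlapped in Bst2.

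In B6 liver the set spanned a wide range of levels. The level per kb of exon, which allows genes to be compared, was highest for Iigp1, an immunity-related GTPase, at 54.8 CPM per kb. Bst2, which encodes the antiviral protein tetherin, followed at 45.5 CPM per kb and Ifi27 at 19.6 CPM per kb. The median of the 37 genes was 3.92 CPM per kb, and the lowest level was that of Tgtp1, at 0.298 CPM per kb. Counts of Tgtp1 and Tgtp2 may be split, since the genes are nearly identical. Oas1a, at 0.577 CPM per kb, was also low, whereas Isg15, a ubiquitin-like modifier, and Ifit1, which binds foreign RNA, lay near the median of the set, at 3.604 and 3.751 CPM per kb. Before division by length these genes had 1.09 ± 0.304 CPM (Oas1a), 2.73 ± 1.11 CPM (Isg15) and 9.96 ± 3.99 CPM (Ifit1) (SD, n = 20). Genetically identical B6 mice differed widely, and the highest B6 mouse exceeded the lowest by 1.58-fold (Dtx3l) to 7.03-fold (Isg15), with a median of 2.53-fold over the 36 genes without a B6 mouse at 0. The within-strain SD of the log2 CPM had a median of 0.321 over the set and of 0.227 over all genes of the table. The highest strain mean exceeded the lowest by a median of 1.83-fold, from 1.24-fold for Parp9 to 3.40-fold for Tgtp1. Averaging over mice narrows the spread of means, so this ratio cannot be compared with that of single B6 mice.

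**Figure D1:**
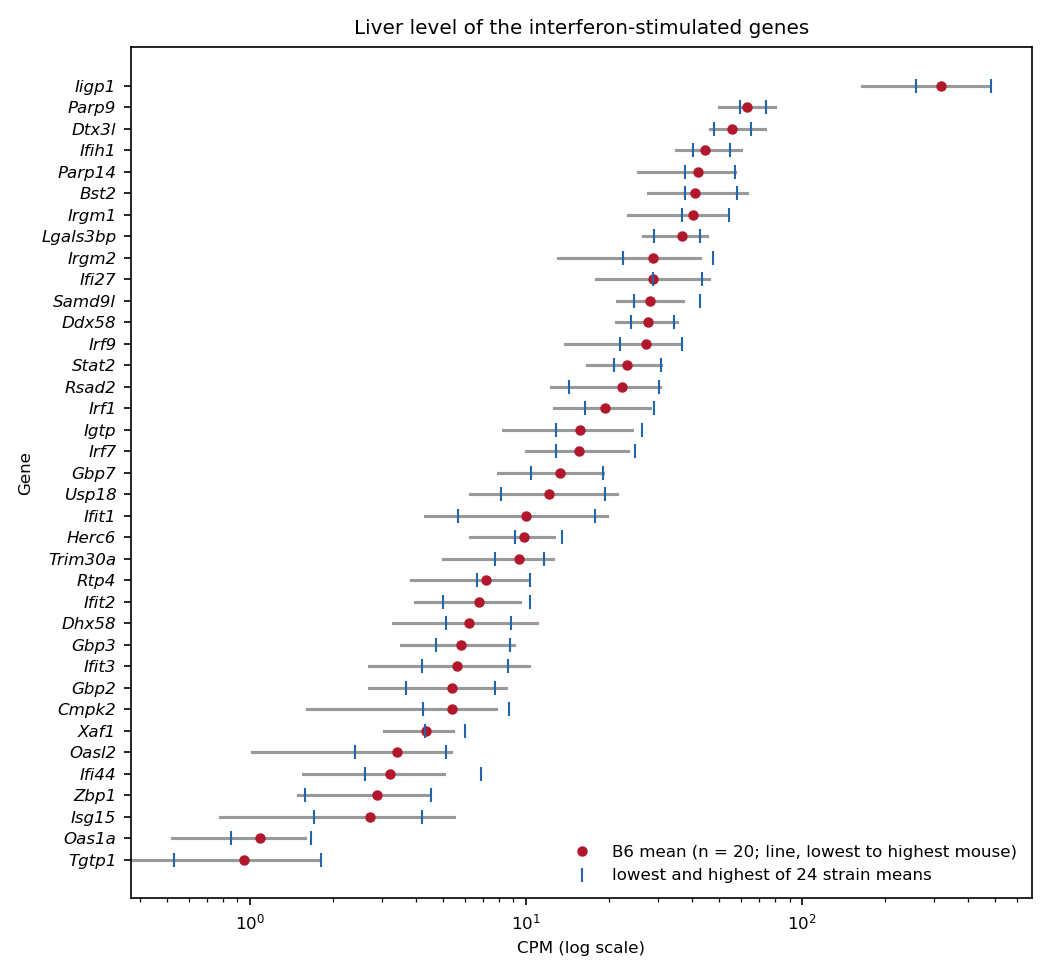
Level of each of the 37 genes in CPM (log scale), with the mean of 20 B6 mice as a point, the lowest to the highest B6 mouse as a line, and the lowest and highest of the 24 strain means as ticks. Iigp1 stands above the rest at 319 CPM, and the line of Tgtp1 runs off the axis because 1 B6 mouse had 0 counts.

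A joint test of the 23 strain coefficients asked whether strain affected each gene at all. At a false discovery rate (FDR) of 0.05, 34 of the 37 genes were called by edgeR's quasi-likelihood F-test, whereas 51.4% of all genes were called. The genes not called were Oas1a (adjusted p = 0.0801), Oasl2 (adjusted p = 0.163) and Isg15 (adjusted p = 0.207), which are the genes with low counts of the 2′-5′ oligoadenylate synthetase and ISG15 systems. A joint test of the 15 interactions called 17 of 37 genes, with a background of 27.4% of all genes. For single effects, p-values were adjusted within each effect. Over the 8 main effects, 44 of 296 combinations of gene and effect were called, and 41 of the 44 were higher than in B6. The call rate was 11.1% over all genes in either direction and 5.32% higher. Over the 15 interactions, 38 of 555 combinations were called and 33 of the 38 were lower than the sum of the main effects. Over all genes 5.96% were called in either direction, so that the pooled number of calls was near the background, and 2.61% were lower. All main effects share the same 20 B6 mice, so their directions are not independent of each other.

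**Figure D2:**
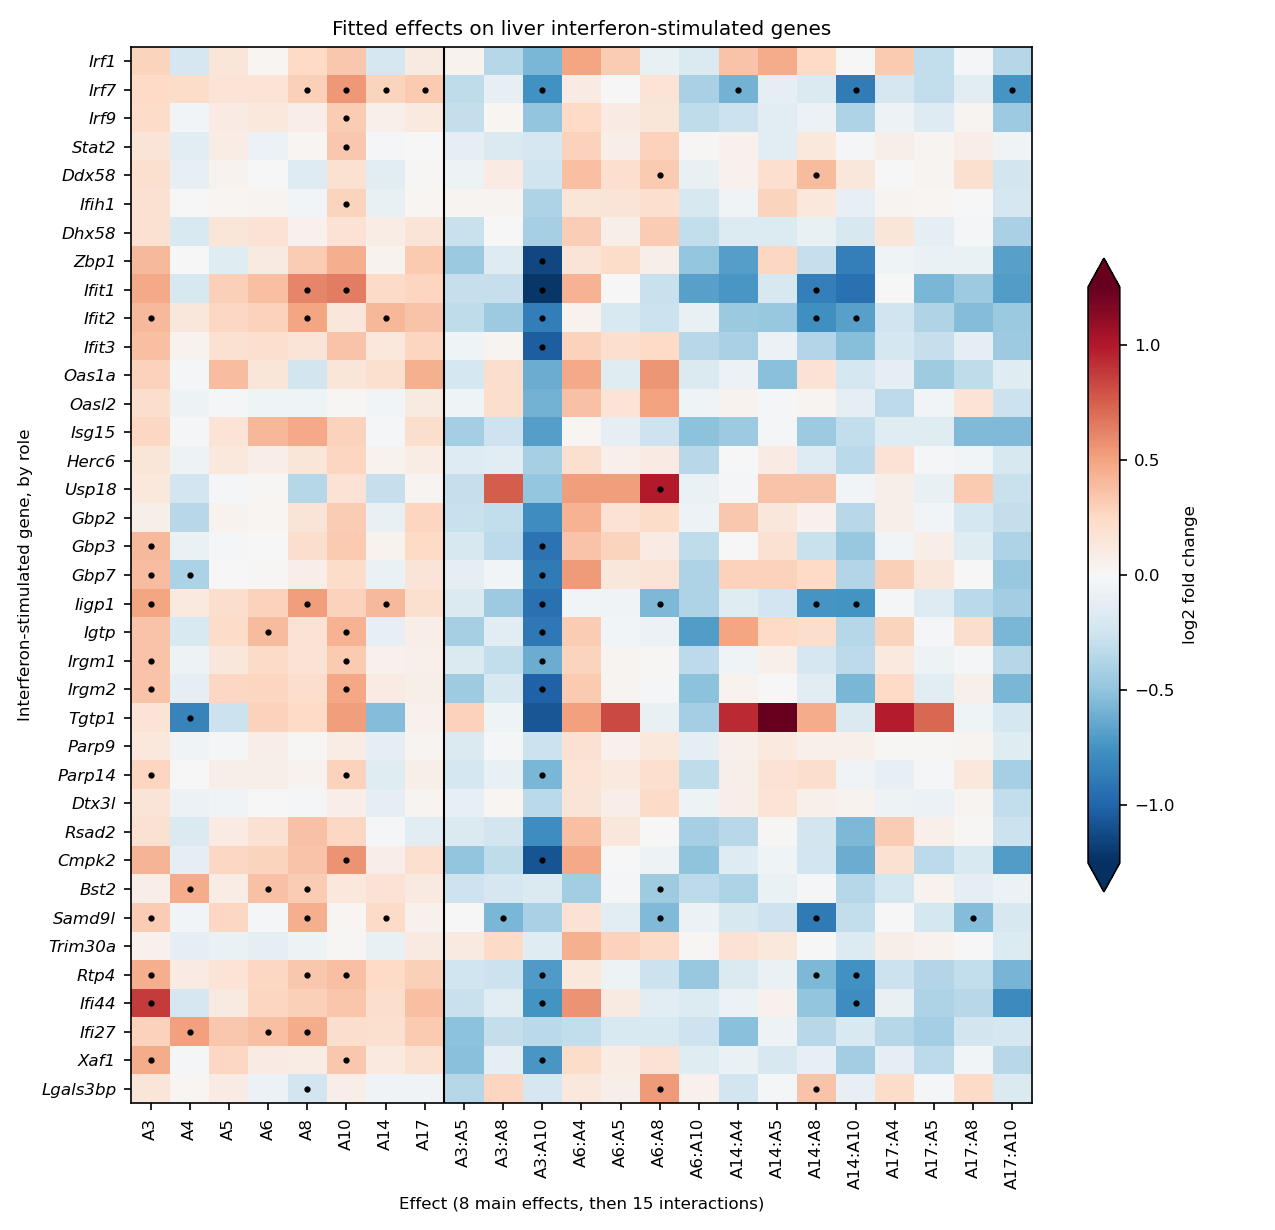
Fitted log2 fold change of each gene (rows, ordered by role) for the 8 main effects and 15 interactions (columns), with a dot where the FDR was under 0.05. The A3 and A10 columns are red for all 37 genes and the A3:A10 and A17:A10 columns are blue for all 37.

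Substitution of chromosome 3 raised 11 of the 37 genes and lowered none, with a background of 3.7% of all genes called in either direction and 1.94% called higher. The median log2 fold change of the set was 0.27, compared with 0.00 over all genes, and all 37 estimates were positive. Ifi44, which lies on chromosome 3 itself, rose most, by 0.87 ± 0.12 (log2 fold change ± SE, adjusted p = 1.91e-09). The 8 A3 mice had 3.87 to 7.496 CPM of Ifi44 (median 5.81), and the 20 B6 mice had 1.55 to 5.04 CPM (median 3.20). The groups overlapped, but 5 of 8 A3 mice exceeded every B6 mouse. Of the 3 guanylate-binding proteins, which are GTPases that attack the vacuoles of intracellular pathogens and are encoded on chromosome 3, Gbp3 (0.40 ± 0.11, adjusted p = 0.00708) and Gbp7 (0.38 ± 0.11, adjusted p = 0.00789) rose, and Gbp2 had 0.07 ± 0.13. Iigp1, Irgm1 and Irgm2 of the 5 immunity-related GTPases rose by between 0.35 and 0.49. Iigp1 had 299 to 520 CPM in A3 (median 426) and 165.4 to 479 CPM in B6 (median 322). Xaf1, an apoptosis-associated gene, Rtp4, Ifit2, Samd9l and Parp14 were the others that rose. None of the 4 transcription factors was called. The number of calls depended on the surrogate variables, and without them 2 of 37 genes were called in A3, with 0.918% of all genes. The calls of Irgm2 and Parp14 were lost without E373.

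Substitution of chromosome 10 raised 12 of the 37 genes and lowered none, with a background of 6.64% of all genes called in either direction and 3.66% called higher. The median log2 fold change of the set was 0.29, compared with 0.00 over all genes, and again all 37 estimates were positive. Here the transcription factors were among the genes called. Irf7, the inducible factor that amplifies the type I interferon response, rose by 0.54 ± 0.10 (adjusted p = 0.000227), with 16.6 to 23.7 CPM in the 8 A10 mice (median 19.3) and 9.98 to 23.3 CPM in B6 (median 15.7). Its groups overlapped, with no A10 mouse below the B6 median. Irf9 rose by 0.31 ± 0.09. Stat2, which lies on chromosome 10, rose by 0.34 ± 0.09 (adjusted p = 0.00219) and had 26.9 to 36.99 CPM in A10 and 16.6 to 30.9 CPM in B6. It stayed called under all 11 alternatives run for it. The largest estimate was that of Ifit1, at 0.64 ± 0.20 (adjusted p = 0.039), followed by Cmpk2, a nucleotide kinase, at 0.56 ± 0.17 (adjusted p = 0.0268). Irgm2 (0.48 ± 0.12), Igtp (0.43 ± 0.14) and Irgm1 (0.32 ± 0.09) of the immunity-related GTPases also rose, as did Rtp4, Parp14, Xaf1 and the RNA sensor Ifih1. Igtp and Irgm2 overlap on the same strand, so their counts are not fully separate. Irgm1, Irgm2, Parp14, Rtp4 and Xaf1 were called in A3 and in A10, 6 genes in A3 and not in A10, and 7 in A10 and not in A3. The difference between these effects was not tested. Without surrogate variables 8 of 37 genes were called in A10, with 9.87% of all genes, and the calls of Rtp4 and Xaf1 were lost without E373.

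When chromosomes 3 and 10 were combined, 16 of the 37 genes had a called interaction and all 16 were negative, with a background of 1.17% of all genes called in either direction and 0.737% called lower. The median interaction of the set was -0.62, compared with 0.01 over all genes, and all 37 estimates were negative. By role, 3 of 3 IFIT genes, 4 of 5 immunity-related GTPases, 2 of 3 guanylate-binding proteins, 1 of 4 transcription factors (Irf7), 1 of 4 sensors (Zbp1), 1 of 3 PARP and DTX genes (Parp14) and 4 of 10 other effectors (Cmpk2, Rtp4, Ifi44 and Xaf1) were called. None of the OAS and ISG15 genes was called, where Oas1a, Oasl2, Isg15, Herc6 and Usp18 had estimates between -0.69 and -0.41. In B6, 3 of the 5 had mean levels under 4 CPM, whereas Herc6 and Usp18 had 9.82 and 12.13 CPM. Zbp1 and Ifi44, which were called, had 2.885 and 3.216 CPM in B6. Of the 16 genes, 14 also had a called main effect of A3 or A10, and Ifit3 and Zbp1 had neither. The double CSS lay closer to B6 than the sum of the main effects in all 16. With positive main effects and a negative interaction, this is largely set by arithmetic. Main effects and interactions are also estimated from the same A3, A10 and B6 mice, so the overlap of their calls is not separate evidence.

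Irgm2 had an interaction of -1.01 ± 0.19 (adjusted p = 0.000753) and was called under all 16 alternatives run for it. Its level was 15.8, 19.9, 25.1, 20.9 and 30.9 CPM in the 5 A3:A10 mice, 22.4 to 53.6 CPM in A3 (median 34.0), 26.6 to 47.6 CPM in A10 (median 34.5) and 13.03 to 42.7 CPM in B6 (median 30.1). Thus 4 of the 5 A3:A10 mice lay below every A10 mouse, and all 5 lay within the range of B6. Ifit1 had the largest interaction, at -1.22 ± 0.33 (adjusted p = 0.0343). It had 5.80, 5.71, 8.57, 10.7 and 13.04 CPM in A3:A10, 7.39 to 18.9 CPM in A3 (median 11.9), 8.41 to 23.02 CPM in A10 (median 12.7) and 4.30 to 19.6 CPM in B6 (median 9.12). The groups overlapped, and 2 A3:A10 mice lay below every A3 and A10 mouse. Zbp1, a sensor of Z-form nucleic acids, had an interaction of -1.13 ± 0.31 (adjusted p = 0.0343). Its level was 1.96, 1.68, 2.06, 1.53 and 3.10 CPM in A3:A10, 1.96 to 4.99 CPM in A3 and 2.17 to 5.197 CPM in A10. Cmpk2 had -1.08 ± 0.27 (adjusted p = 0.0192), with 3.24, 4.78, 4.27, 4.24 and 5.97 CPM in A3:A10, 4.13 to 9.40 CPM in A3 and 4.66 to 9.73 CPM in A10. For both genes the highest A3:A10 mouse, E736, lay inside the ranges of both single CSSs. For Zbp1, E527 also lay inside the range of A3. For Cmpk2, E395 lay inside both ranges, and E527 and E719 lay inside that of A3. Ifit3 had -1.03 ± 0.28 (adjusted p = 0.0412), with 3.24, 4.04, 3.96, 4.17 and 6.07 CPM in A3:A10, 5.57 to 10.2 CPM in A3 and 6.21 to 9.74 CPM in A10, so that all 5 double CSS mice lay below every A10 mouse. Counts of Ifit3 and Ifit3b may be split between these similar genes. Iigp1 had -0.94 ± 0.18 (adjusted p = 0.00113), with 193, 253, 273, 254 and 321 CPM in A3:A10 and 307 to 367 CPM in A10.

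**Figure D3:**
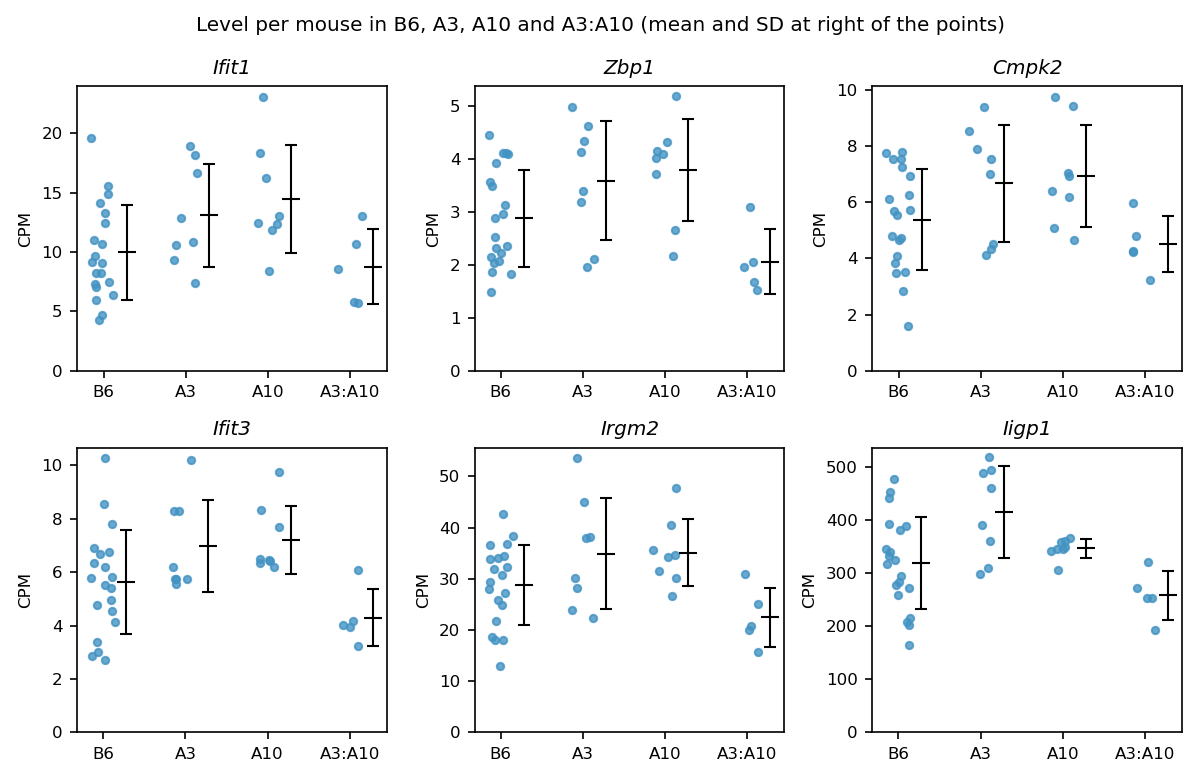
CPM in each mouse of B6 (n = 20), A3 (n = 8), A10 (n = 8) and A3:A10 (n = 5) for the 6 genes with the largest called A3:A10 interaction, with the mean and SD beside the points. In each panel the A3 and A10 means lie above the B6 mean and the A3:A10 mean lies below it.

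The direction of the A3:A10 interaction held in every fit, but the count of calls did not. Without surrogate variables 6 of 37 genes were called, with 0.534% of all genes, and the median of the set was -0.68 there. Leaving out mouse E394 left 9 of 37 genes called, where the calls lost were Cmpk2, Ifi44, Ifit1, Ifit3, Parp14, Rtp4 and Zbp1, while leaving out E395, E527, E719 or E736 left 11, 12, 13 and 16. In each of these fits all 37 estimates were negative. The call of Ifi44 was lost without E373. Compared with B6 directly, A3:A10 mice were called higher for 2 of 37 genes, with a background of 0.798% of all genes in either direction and 0.399% higher. These were Ifi44 (0.47 ± 0.15, adjusted p = 0.0319) and Stat2 (0.29 ± 0.09, adjusted p = 0.0442), which lie on the substituted chromosomes 3 and 10. The count was 0 without surrogate variables, with adjustment over all genes and without E394, E719 or E736, and 1 without E527 or E373. The median of the set was -0.08 for A3:A10 minus B6, whereas the sum of the main effects had a median of 0.55. Of the 16 genes with an interaction, 13 had an unadjusted p above 0.1 against B6, which does not show that these levels were equal. Contents of other cells were followed in the same mice through marker lists. The Kupffer cell and macrophage list (12 of 12 genes measured) summed to 416 to 671.6 CPM in B6, 471 to 622 CPM in A3, 430 to 605 CPM in A10 and 405 to 581 CPM in A3:A10, and 1 of its genes, Marco, was called lower in A10. The hepatocyte list (6 of 6 genes measured) summed to 86500 to 134000 CPM in B6, 71120 to 103000 CPM in A3, 71850 to 93730 CPM in A10 and 81370 to 114900 CPM in A3:A10. Its medians were lower in A3 (86420 CPM) and A10 (87560 CPM) than in B6 (96800 CPM) and highest in A3:A10 (103800 CPM). This order is opposite to that of the interferon-stimulated genes, but the sum is mostly Alb, at 82620 CPM on average in B6. Alb had estimates of -0.22 in A3, -0.10 in A10 and 0.41 in A3:A10, none of them called. In A3, Ttr (0.11), Serpina1c (0.14) and Trf (0.03) had positive estimates, and Apoa1 (-0.07) and Cyp3a11 (-0.10) negative ones. In the same order, these genes had -0.002, 0.27, -0.07, -0.08 and -0.12 in A10. Their A3:A10 interactions were 0.03, -0.22, 0.03, 0.01 and -0.05, so none was near that of Alb. The part of hepatocyte content in the result was not tested. The hepatocyte gene Serpina1c, the sinusoidal endothelial gene Stab2 and the stellate cell gene Reln were called higher in A10. No gene of the T and NK cell, B and plasma cell, dendritic cell, plasmacytoid dendritic cell, neutrophil, cholangiocyte or erythroid lists was called in A3, A10 or A3:A10. Of 12 acute phase genes, Orm1 was called higher in A3 (0.40, adjusted p = 0.0327) and none in A10 or A3:A10. Estimates of Saa1, Saa2 and Orm2 in A3 were 1.29, 1.74 and 0.83, and those of their A3:A10 interactions were -1.65, -2.39 and -0.79, none of them called. In A10 these genes had -0.12, -0.25 and -0.31. Saa3, Orm1 and Orm3 were also positive in A3 and negative in A3:A10. Lcn2, Apcs and Hamp had the opposite signs, with -0.27, -0.29 and -0.16 in A3 and 0.54, 0.53 and 0.08 in A3:A10. Hp, Crp and Fgb kept the same sign in both. The part of acute phase genes in the result was not tested. Of 11 T and NK cell genes 1 was measured, as were 2 of 8 neutrophil genes. In bulk liver, fewer cells of a type and less RNA per cell cannot be told apart.

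The other crosses with A10 share its 8 single CSS mice and the 20 B6 mice, so their estimates are set side by side without counting them as separate evidence. The median interaction of the set was -0.32 in A6:A10, -0.34 in A14:A10 and -0.35 in A17:A10. Estimates were negative for 34 of 37 genes in A6:A10 and in A14:A10 and for all 37 in A17:A10. In A14:A10, 5 of 37 genes were called, all negative, with a background of 4.16% of all genes in either direction and 1.72% negative. They were Irf7 (-0.87 ± 0.18, adjusted p = 0.00181), Ifi44 (-0.78 ± 0.24), Rtp4 (-0.76 ± 0.21), Iigp1 (-0.75 ± 0.19) and Ifit2 (-0.68 ± 0.21). Irf7 had 16.04, 17.9, 14.1, 15.4 and 14.6 CPM in A14:A10, where 4 of 5 mice lay below every A10 mouse. The A14:A10 count fell to 2 without surrogate variables, to 1 with 10 of them, to 1 (Irf7) without E373, to 3 with the stricter count filter and to 3 without each of E224, E437 and E548. In A17:A10, Irf7 alone was called (-0.74 ± 0.17, adjusted p = 0.0408), with a background of 0.113%, and it had 20.5, 9.32, 15.9 and 13.4 CPM. That call was lost without surrogate variables and without E373, E506 or E623, and 2 genes were called without E501. In A6:A10, 0 of 37 genes were called by edgeR or DESeq2, 11 had an unadjusted p under 0.05 and 0.0527% of all genes were called.

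**Figure D4:**
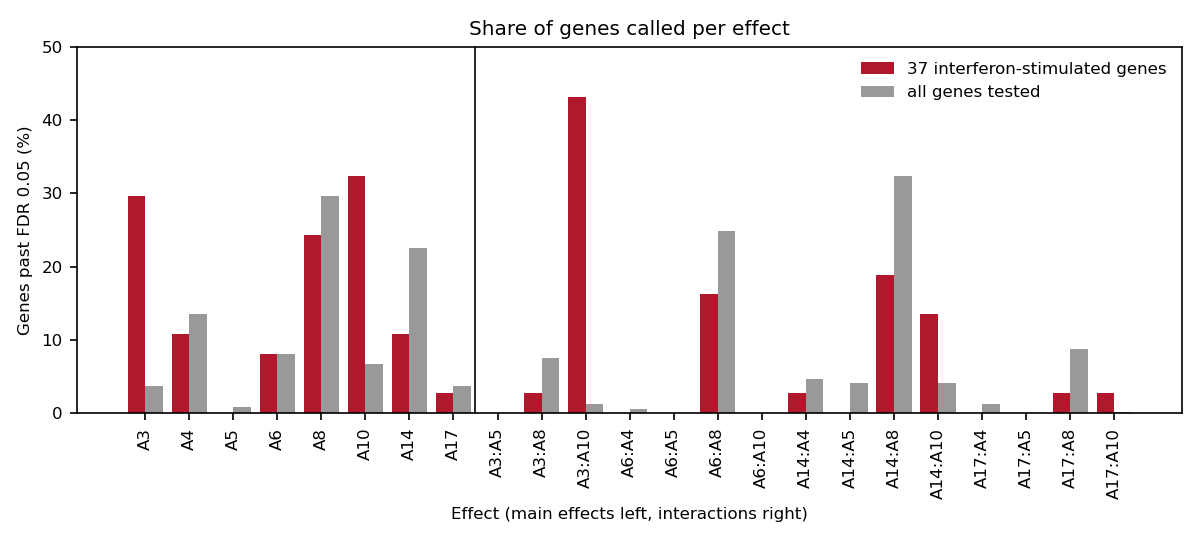
Percent of the 37 genes and of all 13289 genes called at an FDR of 0.05 for each of the 8 main effects (left) and 15 interactions (right). The share of the set lies above that of all genes in A3, A10, A3:A10, A14:A10 and A17:A10, about equals it in A6, and lies at or below it in the other effects.

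Substitution of chromosome 8 changed a large part of the liver transcriptome. In A8, 9 of 37 genes were called, 8 of them higher, compared with 29.6% of all genes called in either direction and 12.9% called higher. The A8 count was 21 without surrogate variables, 1 with 10 surrogate variables and 5 without B6 mouse E373, where the calls of Irf7, Bst2, Rtp4 and Lgals3bp were lost. Those of Irf7, Rtp4 and Lgals3bp were also lost without E733. For this effect, as for most others, shares of all genes in the alternative fits are not given. A change in the set can therefore not be told from a change over all genes. Beside Samd9l, the genes called higher were Irf7, Ifit1, Ifit2, Iigp1, Bst2, Rtp4 and Ifi27, and Lgals3bp was lower. Samd9l, an antiviral factor, was the exception to this dependence. It rose by 0.45 ± 0.09 in A8 (adjusted p = 7.25e-05) and was called there under all 11 alternatives. The 8 A8 mice had 33.9 to 53.7 CPM (median 40.6) and the B6 mice 21.4 to 37.1 CPM. In the 4 crosses with A8, its interaction was called each time and negative each time, at -0.88 ± 0.15 in A14:A8 (adjusted p = 1.38e-06), -0.58 ± 0.17 in A3:A8 (adjusted p = 0.0199), -0.55 ± 0.15 in A6:A8 (adjusted p = 0.0024) and -0.54 ± 0.15 in A17:A8 (adjusted p = 0.0163). Samd9l had 19, 21.5, 27.4, 26.3 and 28.7 CPM in A14:A8, 24.7, 30.4, 22.6, 27.0 and 28.6 CPM in A17:A8, and 19.9 to 29.1 CPM in the 6 mice of A6:A8. In A3:A8 it had 25.6, 34.1 and 34.9 CPM. No mouse of A14:A8, A17:A8 or A6:A8 reached the lowest A8 mouse, and 2 of 3 A3:A8 mice lay above it. The 4 interactions share the A8 and B6 mice. Those in A14:A8 and A6:A8 were called under every alternative run for them, whereas that in A3:A8 was lost without E141 or E689, with 10 surrogate variables and with the stricter count filter, and that in A17:A8 with 10 surrogate variables, with the stricter count filter and without E373.

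The remaining genes called in A14:A8 and A6:A8 had interactions in both directions. In A14:A8, 7 of 37 genes were called, 5 negative and 2 positive, compared with 32.4% of all genes in either direction, 14.3% negative and 18.1% positive, and the count was 1 with 10 surrogate variables, 3 with the stricter count filter and 4 without E373, where Ifit1, Rtp4 and Lgals3bp were lost. The last 2 were also lost without E733. Ifit1 (-0.85 ± 0.35), Ifit2 (-0.76 ± 0.21), Iigp1 (-0.74 ± 0.19) and Rtp4 (-0.56 ± 0.21) were negative, and the RNA sensor Ddx58 (0.40 ± 0.13) and Lgals3bp were positive. In A6:A8, 6 of 37 genes were called, 3 positive and 3 negative, compared with 24.8% of all genes in either direction, 13.4% positive and 11.4% negative, and the count was 1 with 10 surrogate variables and 3 with the stricter count filter. Usp18, the protease that removes ISG15 from proteins and restrains receptor signalling, had the largest positive interaction called, at 0.99 ± 0.23 (adjusted p = 0.000482). The 6 A6:A8 mice had 15.2 to 24.6 CPM of Usp18 (median 18.6), the A6 mice 9.32 to 16.98 CPM, the A8 mice 7.53 to 12.2 CPM and the B6 mice 6.28 to 21.3 CPM. All 6 lay above every A8 mouse and overlapped with A6 and B6. Usp18 lies on chromosome 6, but its main effect in A6 was 0.02 ± 0.14. Lgals3bp (0.53 ± 0.13) and Ddx58 (0.32 ± 0.13, adjusted p = 0.0465) were positive, and Iigp1 (-0.56 ± 0.18), Samd9l and Bst2 (-0.44 ± 0.16) were negative. The Ddx58 call was lost under 8 of its 11 alternatives, among them without E733 and without E373, and those of Iigp1 and Bst2 were lost without E373.

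Against B6 directly, A6:A4, A6:A8 and A6:A5 had the most genes called among the double CSSs, all of them higher. These contrasts were added after the values were seen. In A6:A4, 12 of 37 genes were called, with a background of 4.82% of all genes in either direction and 2.78% higher. In A6:A8, 11 of 37 were called, with 2.25% and 1.45%, and in A6:A5 7 of 37, with 2.42% and 1.47%. Ifi27, Igtp, Irgm1 and Irgm2 were higher in all 3 strains. In A6:A10, the other cross with A/J chromosome 6, 0 of 37 genes were called by edgeR and 1 by DESeq2's Wald test, 7 had an unadjusted p under 0.05 and 0.978% of all genes were called. In that cross 1 gene was also called by edgeR without E324. The A6:A4 count was 5 without surrogate variables, 7 with 10 of them, 6 without E11 and 5 without E210. The A6:A5 count was 0 without E202, 1 without E181, 2 without E73 and 3 without E237 or E373, whereas the A6:A8 count was 10 to 16 in the fits run for it. Igtp had 26.2 CPM on average in A6:A5, the highest strain mean, compared with 15.7 ± 5.23 CPM in B6, and the difference was 0.59 ± 0.16 (adjusted p = 0.0304). Irgm1, which organises the other GTPases of its family, was 0.45 ± 0.10 higher in A6:A4 (adjusted p = 0.00261). The interaction was not called for any gene in A6:A4 or A6:A5, with 8 and 3 genes at an unadjusted p under 0.05 and 0 called by edgeR or DESeq2, and with backgrounds of 0.542% and 0.0%. In A6:A4, 1 gene was called without E520 and 2 without E713. A single substitution of chromosome 6 raised 3 of 37 genes, Igtp (0.40 ± 0.12), Ifi27 (0.37 ± 0.11) and Bst2 (0.37 ± 0.09, adjusted p = 0.00488), with a background of 8.09% in either direction and 4.3% higher. In A6 the count was 8 without surrogate variables, 0 with 10 of them and 1 (Bst2) without E373.

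The other main effects were few. In A4, 4 of 37 genes were called, with a background of 13.5% in either direction, 7.6% higher and 5.88% lower, and the count was 2 without surrogate variables and 1 with 10 of them. Ifi27 (0.51 ± 0.11, adjusted p = 0.000958) and Bst2 (0.46 ± 0.09, adjusted p = 0.000269) rose, and Tgtp1 (-0.84 ± 0.28) and Gbp7 (-0.40 ± 0.12) fell. Bst2 had 40.0 to 69.7 CPM in A4 and 27.6 to 63.1 CPM in B6, and was called in A4 under all 11 alternatives. In A14, Ifit2 (0.41 ± 0.12), Iigp1 (0.40 ± 0.11), Irf7 (0.28 ± 0.10) and Samd9l (0.24 ± 0.09) rose, which were 4 of 37 genes with a background of 22.5% in either direction and 9.98% higher. The A14 count was 2 without surrogate variables, 0 with 10 of them, 1 with the stricter count filter and 2 without E373, where Irf7 and Samd9l were lost. The Irf7 call was also lost without E733. In A17, Irf7 alone was called (0.33 ± 0.10, adjusted p = 0.0459), with a background of 3.67%, and this call was lost without surrogate variables, with 10 of them, with the stricter count filter and without E733 or E373, whereas 2 genes were called without B6 mouse E369. In A5, 0 of 37 genes were called by edgeR or DESeq2, 7 had an unadjusted p under 0.05 and 0.768% of all genes were called. Oas1a and Oasl2 lie on chromosome 5 and had 0.38 ± 0.19 (adjusted p = 0.245) and -0.03 ± 0.15 in A5. In all, 14 genes lay on a substituted chromosome, and 5 of the 14 were called in the effect of their own chromosome, which were Ifi44, Gbp3, Gbp7, Stat2 and Bst2, compared with 18.4% of all genes on the substituted chromosomes. The Bst2 call in A8 was lost without surrogate variables, with 10 of them and without E373, and the Gbp3 and Gbp7 calls in A3 were lost without surrogate variables. The 9 others included Isg15 (-0.02 ± 0.21) and Ddx58 (-0.11 ± 0.08) in A4, Irf9 (0.06 ± 0.09) in A14, and Herc6 (0.09 ± 0.09) and Samd9l (-0.03 ± 0.09) in A6. Whether A/J variants in these genes changed the alignment of reads was not tested.

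The remaining interactions held 1 call or none. Irf7 was called in A14:A4 (-0.59 ± 0.18, adjusted p = 0.0325), with a background of 4.63%, and the call was lost without surrogate variables, with 10 of them, with the stricter count filter, and without E733, E373 or E744, whereas 3 genes were called without E485. Mouse levels of Irf7 in A14:A4 were 10.9, 10.3, 11.6, 16.2 and 15.02 CPM, all within the range of B6. A14:A4 had the lowest mean of 20 of the 37 genes among the 24 strains. These are CPM means without adjustment for surrogate variables, with E733 among the mice. The share of all genes with their lowest mean in this strain is not given, so the count is not a result about the set. Against B6 directly, 4 of 37 genes were called in A14:A4, with a background of 13.9% in either direction and 7.15% lower. Usp18 (-0.53 ± 0.18, adjusted p = 0.0293), Rsad2 (-0.55 ± 0.19) and Lgals3bp (-0.26 ± 0.09) were lower, and Iigp1 (0.37 ± 0.12) was higher. The count was 0 with 10 surrogate variables and without E732 or E733, 1 without E369 or E485, 2 without E742 or E744 and 7 without E373. In A3:A8 and A17:A8, Samd9l was the gene called, with backgrounds of 7.56% and 8.68%. The A3:A8 count was 0 without E689 and 2 without E688, and the A17:A8 count was 7 without surrogate variables and 2 without E16. In A3:A5, A14:A5, A17:A4 and A17:A5, 0 of 37 genes were called by edgeR or DESeq2, with 4, 4, 1 and 1 genes at an unadjusted p under 0.05. In A14:A5, 1 gene was called with the newer edgeR method. The backgrounds there were 0.0% for A3:A5, 4.04% for A14:A5, 1.21% for A17:A4 and 0.0% for A17:A5.

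No mouse had a level of the whole set that was high at the cut used. The value of each gene was compared with the median of the strain, and a gene counted as high or low in a mouse when it differed by at least 1 log2 unit. Smaller shifts shared by many genes fall under this cut. In B6 mouse E369 the mean over the set lay 0.456 log2 units above its strain mean, with 1 gene high. In 147 mice no gene was high, and in the other 7 mice 1 gene was high, where 0.391% to 0.888% of all their genes were high, so that 0.123% of 5698 values were high, compared with 0.491% over all genes of the table. The largest excess was Tgtp1 in mouse E117 of A8, with 4.25 CPM against a strain median of 1.18 CPM. The next were Zbp1 in E232 of A6:A10, with 7.51 CPM against 2.59 CPM, and Isg15 in E22 of A17:A5, with 5.93 CPM against 2.33 CPM. Low values were more common, at 0.983% of the values, compared with 0.888% over all genes. They were gathered in few mice, with at least 5 low genes in 5 mice and none in 133. B6 mouse E373 had 8 low genes, where 2.66% of all its genes were low. Its Cmpk2 was 1.61 CPM against a B6 median of 5.62 CPM, its Oasl2 1.02 CPM against 3.70 CPM, its Isg15 0.777 CPM against 2.63 CPM and its Irgm2 13.03 CPM against 30.1 CPM. In the same mouse the hepatocyte markers, a sum that is mostly Alb in B6, reached 134000 CPM, the highest of the B6 mice. The Kupffer cell markers summed to 421.4 CPM, near the lowest. The part of these marker sums in the low values was not tested. Mouse E141 of A3:A8 had 6 low genes, among them Ifit1, with 7.46 CPM against 20.8 CPM in a strain of 3 mice, and Igtp and Irgm2, with a background of 0.918%. Mice E310 of A17:A8, E379 of A17:A5 and E586 of A17 had 5 low genes each, with backgrounds of 0.722%, 1.42% and 1.85%.

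**Figure D5:**
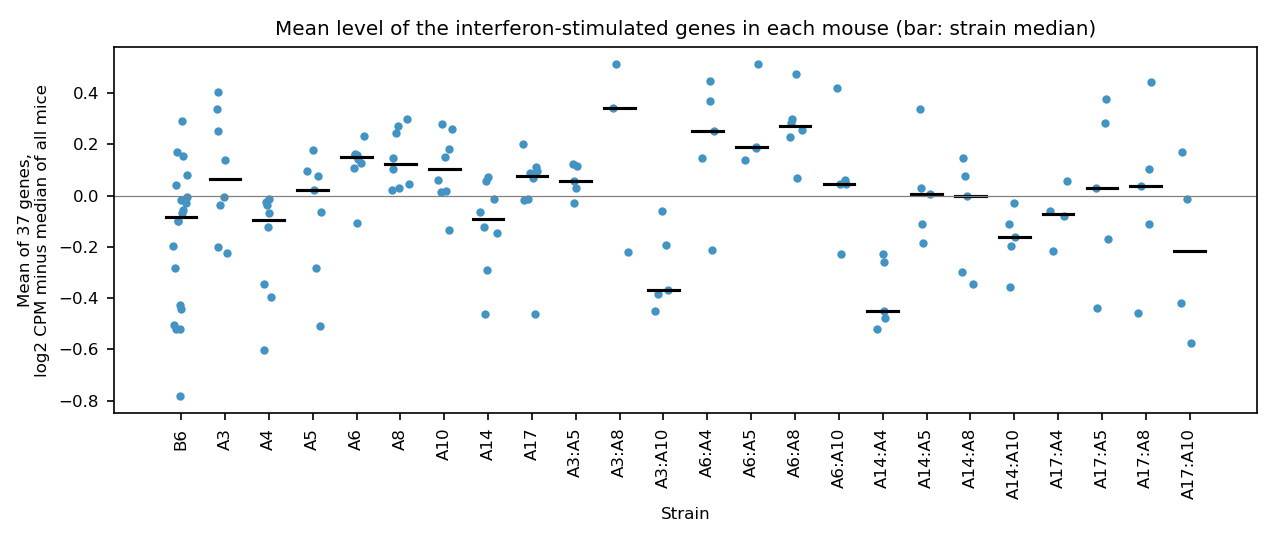
Mean over the 37 genes of the log2 CPM minus the median of all mice, for each mouse by strain, without adjustment for surrogate variables, with a bar at the strain median. The bars of A14:A4 (-0.45) and A3:A10 (-0.37) are the lowest, that of A3:A8 (0.34, n = 3) is the highest, and B6 mice spread from -0.78 to 0.29.

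The mean over the set was also computed without a model. Medians of the strains lay between -0.45 log2 units in A14:A4 and 0.34 in A3:A8, relative to the median of all mice. The 5 A3:A10 mice lay between -0.45 and -0.06, the 20 B6 mice between -0.78 and 0.29, the A3 mice between -0.23 and 0.41 and the A10 mice between -0.14 and 0.28. The strain medians of A14:A4 and A3:A10 lay below that of B6 (-0.08) more clearly here than in the fit with surrogate variables, where the median difference from B6 over the set was -0.09 for A14:A4 and -0.08 for A3:A10. Neighbouring strains in this order overlapped widely, and a range within a strain reached 1.07 log2 units in B6.

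Genes of the set rose and fell together among mice of the same strain. With strain means removed, Pearson's r over all mice of the 24 strains had a median of 0.426 over the 666 pairs of genes, and 655 pairs were above 0, whereas the median over all pairs of genes in the table was -0.0022. Within the 20 B6 mice alone the median was 0.534. All genes of a mouse share its library, so r describes these libraries and was not tested. The closest pair was Igtp and Irgm2 (r = 0.88), which overlap, followed by Ifit1 and Rsad2 (r = 0.789), the gene of viperin, and Iigp1 and Irgm2 (r = 0.775), which lie on different chromosomes. Within the guanylate-binding proteins and immunity-related GTPases the median was 0.601 over 28 pairs, and between them and the sensors it was 0.342 over 32 pairs. Stat2 and Bst2 had the lowest r with the mean of the other genes, at 0.264 and 0.281, followed by Lgals3bp (0.31), Dhx58 (0.363) and Irf1 (0.373), whereas Igtp had the highest, at 0.814, and the 6 lowest pairs all held Bst2. Among the genes outside the set most like its mean were Ddx60 (r = 0.802), Gm12250 (0.734), Gbp10 (0.723), Ifi47 (0.716), Apol9a (0.695), Ifit3b (0.681), Ube2l6 (0.679), Gbp9 (0.678) and Rnf213 (0.672). The mean of the set was not related to the total count (r = -0.00123), but it followed the surrogate variables, with r of -0.46 for the fourth and -0.231 for the third. The 5 surrogate variables took a median of 24.5% of the within-strain variance of these genes and 21.4% over all genes. The mean of the set followed the summed Kupffer cell markers with r = 0.376 and the hepatocyte sum, mostly Alb, with r = -0.39. Their part in the variation was not tested.

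The rest of the interferon pathway was followed through a list of further genes, of which 109 were measured. That list was also written with earlier results of these data known. In A3, 10 of 109 were called, all higher, in A10 14 of 109, all higher, and in A3:A10 13 of 109, all negative. The median log2 values were 0.13, 0.12 and -0.26. For all genes the shares were 3.7%, 6.64% and 1.17% in either direction, and 1.94%, 3.66% and 0.737% in the direction of these calls. No call fell among 5 receptor subunits, 16 sensors and adaptors and 9 inhibitors measured, but these lists are short, and few calls would be made in them at the share of all genes. Ifnar1, a subunit of the type I receptor, had 46.0 ± 2.61 CPM (SD, n = 20) in B6 and an interaction of -0.16 in A3:A10 (adjusted p = 0.224). Of 10 ligands listed only Il18 was measured. Of the list of other induced genes, 12 were called in A3:A10. Gbp11 had -1.88 ± 0.29 (adjusted p = 1.51e-05), Gbp10 -1.66 ± 0.40, Gbp6 -1.45 ± 0.32 and Gbp9 -0.50 ± 0.14, and these genes lie on chromosome 5 rather than chromosome 3. Apol9a had -1.53 ± 0.25 and Apol9b -1.08 ± 0.19. The chemokines Cxcl10 and Cxcl9, which attract T cells, had -1.58 ± 0.36 and -1.50 ± 0.33, and Cd274, which encodes PD-L1, had -1.34 ± 0.29. Ifi47 (-1.09 ± 0.26), Ifitm3 (-0.70 ± 0.13) and the peptide transporter Tap1 (-0.69 ± 0.18) completed the list.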

How the data were processed

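Liver RNA of 20 B6, 63 single CSS and 71 double CSS mice was sequenced by the authors with a stranded total RNA kit, aligned to mm10 with TopHat2 and to an individualized A/J genome for the remaining reads, and counted with HTSeq. The strand setting of the counting was not given in the sources used here. The deposited values are raw counts per gene for 13289 genes, from which the authors had removed genes with low counts. Here the counts were fitted with edgeR 4.0.16 in R 4.3.3 (TMM normalization, quasi-likelihood F-test with legacy=TRUE), with terms for 8 chromosomes, for 15 interactions and for 5 surrogate variables (sva 3.50.0), and with limma 3.58.1 installed as a dependency. P-values were adjusted (Benjamini-Hochberg) effect by effect, separately for genes on and off the substituted chromosomes, at an FDR of 0.05. Joint tests were adjusted over all genes. Positions came from GENCODE, and 47 genes without one were treated as off the substituted chromosomes. CPM were scaled by TMM, and log2 CPM used a prior count of 2. Results were recomputed with 0 and with 10 surrogate variables, with 5 estimated without the gene lists, with DESeq2 1.42.0 (size factors or the Wald test), with a stricter filter (15 counts or more in 75% of mice or more, met by 35 of the 37 genes), with legacy=FALSE, with adjustment over all genes, and after leaving out E733, E369 or each mouse of the double CSSs with 3 to 5 mice in turn. Leaving out E373, and the contrasts of double CSSs with B6, were added after the data were seen. The genes and lists were chosen with earlier results of these data known. Full statistics were given for up to 6 called genes with the largest change in each effect, genes on a substituted chromosome in its own effect, the 10 most similar genes outside the set, and pathway genes called in A3:A10, and 1 gene is not reported here. Mice with at least 8 high genes were also to be named, and none had them. Other genes and the mice with low values were chosen after their values were seen. Libraries of a strain differed beyond sampling noise, with a lowest chi-square per degree of freedom of 9.07, so that none was counted as a duplicate. Mice are separate animals. On simulated counts for 13289 genes, 100 of 100 changes of 1 log2 unit were recovered for A10 with 4 false calls, and 96 of 100 changes of -1 for A3:A10 with 8 false calls. The changed genes were drawn only from those above a minimum level, and no hidden batch structure was simulated. Recovery of smaller changes, such as most main effects above, and of genes with low counts was therefore not assessed. Precision is limited by the 3 to 8 mice per CSS and, for genes near 1 CPM, by total counts of 4638701 to 30465477 per mouse.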

Additional observations from a re-analysis of the deposited data

Results flagged for a closer look

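In strains of 4 to 10 mice, 1 mouse stood far from the others of its strain for the mean over the 37 genes, relative to the median of all mice, in 3 of 22 strains. These were E318 of A6 (-0.106 log2 units), E586 of A17 (-0.462) and E202 of A6:A5 (0.512). For single genes this was so in 54 of 814 combinations of gene and strain, and chance flags about 1 in 20. Iigp1 in E731 of A10, at 306.5 CPM, was the one among the 18 combinations of the 6 genes plotted for A3, A10 and A3:A10.

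Each called interaction is a tested difference between the effect of a chromosome alone and beside another. In A3:A10 the log2 interactions were -1.22 for Ifit1, -1.13 for Zbp1, -1.075 for Cmpk2, -1.03 for Ifit3, -1.01 for Irgm2, -0.94 for Iigp1, -0.92 for Gbp3, -0.90 for Igtp, -0.89 for Gbp7, -0.86 for Ifit2, -0.76 for Irf7, -0.73 for Xaf1, -0.74 for Ifi44, -0.71 for Rtp4, -0.62 for Irgm1 and -0.57 for Parp14. In A14:A10 they were -0.87 for Irf7, -0.78 for Ifi44, -0.76 for Rtp4, -0.75 for Iigp1 and -0.68 for Ifit2, and Irf7 had -0.74 in A17:A10 and -0.59 in A14:A4. In A14:A8 they were -0.88 for Samd9l, -0.85 for Ifit1, -0.76 for Ifit2, -0.74 for Iigp1, -0.56 for Rtp4, 0.40 for Ddx58 and 0.36 for Lgals3bp. In A6:A8 they were 0.99 for Usp18, 0.53 for Lgals3bp, 0.32 for Ddx58, -0.56 for Iigp1, -0.55 for Samd9l and -0.44 for Bst2. Samd9l also had -0.58 in A3:A8 and -0.54 in A17:A8.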

How the results depend on the processing

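No paired analysis was possible because the labels carry no replicate numbers. No called result reversed its direction, whereas 5 uncalled estimates near 0 changed sign. Of 69 combinations of a named gene and an effect, 18 stayed on the same side of the threshold under every alternative run, of which 9 were called and 9 were not. The share of all genes called also moved between fits. Without surrogate variables it was 0.918% in A3, 9.87% in A10 and 0.534% in A3:A10. For most other effects and fits this share is not given beside the counts, so a change in the set alone is not shown. Counts of genes called moved by over 1.5 times as follows, and the cause was not tested. Without surrogate variables they were 2 in A3, 2 in A4, 8 in A6, 21 in A8, 2 in A14, 6 in A3:A10, 0 in A14:A4, 2 in A14:A10, 7 in A17:A8 and 0 in A17:A10, and against B6 0 in A3:A10 and 5 in A6:A4. With 10 surrogate variables they were 1 in A4, 0 in A6, 1 in A8, 0 in A14, 0 in A17, 0 in A3:A8, 1 in A6:A8, 0 in A14:A4, 1 in A14:A8, 1 in A14:A10, 0 in A17:A8, 7 in the joint interaction test and 7 in A6:A4 against B6. With the stricter count filter they were 1 in A14, 0 in A17, 0 in A3:A8, 3 in A6:A8, 0 in A14:A4, 3 in A14:A8, 3 in A14:A10 and 0 in A17:A8. With legacy=FALSE 1 gene was called in A14:A5. Without E733 there were 0 in A17 and 0 in A14:A4, and without E369 2 in A17. Without E373 there were 1 in A6, 5 in A8, 2 in A14, 0 in A17, 0 in A14:A4, 4 in A14:A8, 1 in A14:A10, 0 in A17:A8 and 0 in A17:A10, and against B6 1 in A3:A10 and 3 in A6:A5. With adjustment over all genes 0 were called in A3:A10 against B6. In A14:A4 against B6, 0 genes were called with 10 surrogate variables and without E733, 1 without E369 and 7 without E373. In A6:A10 against B6, 1 gene was called with 10 surrogate variables, with those estimated without the lists, with the stricter count filter, with DESeq2's Wald test and without E369. With the median of all mice as baseline, up to 3 genes were high in a mouse. Leaving out 1 mouse in turn gave 9 to 16 in A3:A10, 3 to 5 in A14:A10, 0 to 3 in A14:A4, 5 to 7 in A14:A8, 0 to 2 in A17:A10, 1 to 2 in A17:A8, 0 to 2 in A3:A8, 0 to 2 in A6:A4 and 0 in the other interactions of strains with 3 to 5 mice. It gave 0 to 2 in A3:A10, 5 to 12 in A6:A4, 0 to 3 in A6:A5, 0 to 1 in A6:A10 and 0 to 2 in A14:A4 against B6, 13 to 20 in the joint interaction test and 31 to 34 in the joint strain test. Counts of a few reads limit Tgtp1, Oas1a, Isg15 and Zbp1. Surrogate variables were related to the mean of the set, and bulk liver does not separate cell types.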

Other observations

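Beyond the interferon pathway, the genes most opposed to the mean of the set among mice of the same strain were, with r over all mice, whose genes share libraries, Cyp39a1 (-0.621), which encodes an oxysterol hydroxylase of bile acid synthesis, Gfra1 (-0.618), a GDNF family receptor, Nucks1 (-0.577), Nrbp2 (-0.563) and Sfxn1 (-0.558). These genes were chosen after their values were seen, and r was not tested.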
